A study of Mus musculus with 3 samples.

Results

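The RNA of 10 transcription factor genes that steer the fate of T cells, of 32285 genes counted, was followed in CD45+ immune cells from B16F10 mouse melanomas: Tcf7, Lef1, Bach2, Klf2, Id3, Id2, Tox, Eomes, Tbx21 and Prdm1. They were taken by gene symbol, and all 10 were found and passed the filter on low counts. The mice were C57BL/6 animals that carried a subcutaneous B16F10 tumour and, on day 9 after inoculation, received an intravenous transfer of Pmel-1 cytotoxic T lymphocytes that had been activated in culture. Pmel-1 cells carry a transgenic receptor against gp100, a melanocyte protein that B16F10 cells make, and its beta chain uses the Trbv14 segment. Tumours were taken 3, 7 and 14 days after the transfer. CD45+ cells of 3 mice were pooled in equal numbers into 1 library per day, so a day is 1 library with no replicate, all 3 libraries come from treated mice, and none comes from an untreated tumour. RNA was counted as unique molecular identifiers (UMIs), the tags that mark single captured molecules, near the 3′ end of each transcript.

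T cells that keep the potential to divide and persist hold TCF-1 (Tcf7) and LEF-1, partner proteins of one HMG-box family, together with BACH2, which holds back effector genes, KLF2, which keeps cells quiescent and lets them leave for the blood, and ID3. Effector cells hold ID2, the T-box factors T-bet (Tbx21) and Eomesodermin, and BLIMP-1 (Prdm1). TOX is the factor of CD8 T cells under lasting antigen, the exhausted state known from chronic infection and tumours. ID proteins act by binding E proteins and keeping them off DNA. Several of these factors also work in natural killer (NK) cells, which need ID2, T-bet and Eomesodermin, and in regulatory CD4 T cells, which hold BLIMP-1.

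Cells were assigned by their own RNA to 5 gates among barcodes of at least 1500 UMIs. CD8 T barcodes (Cd8a or Cd8b1 with Cd3d or Cd3e) with a Trbv14 UMI are called Trbv14+ and numbered 79, 161 and 136 at days 3, 7 and 14. CD8 T barcodes with no Trbv14 UMI were split by the cell cycle genes Mki67 and Top2a: those with at least 3 UMIs of the pair, 130, 88 and 68 in number, are called cycling Trbv14-, and the other 271, 315 and 306 are called non-cycling Trbv14-. CD4 T barcodes (Cd4 and Cd3, no Cd8) numbered 41, 89 and 148, and NK barcodes (Ncr1 or Klrb1c, no Cd3d or Cd3e) numbered 208, 401 and 158. Trbv14- does not mean host cell, because only 24.4%, 35.8% and 31.2% of all CD8 barcodes at days 3, 7 and 14 held a UMI of any Trbv segment. Host CD8 cells that use Trbv14 themselves cannot be told apart from transferred cells either.

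The libraries held 3656, 3038 and 3549 barcodes with 33096709, 29547433 and 35742070 UMIs, of which 2775, 2600 and 2902 barcodes reached 1500 UMIs. The gates differed in depth: Trbv14+ barcodes had medians of 26176, 18321 and 25920 UMIs and cycling Trbv14- barcodes 28516, 26141 and 22692, against 9082, 9516 and 7589 in non-cycling Trbv14- barcodes. A Trbv14 UMI is found more readily in a deep cell, and 49.4%, 34.8% and 61.8% of Trbv14+ barcodes also passed the cycling cut. Barcodes whose sequence occurs in more than 1 library made up 31.6%, 24.2% and 17.6% of Trbv14+ barcodes and 34.6%, 44.3% and 20.6% of cycling Trbv14- barcodes, against 6.27%, 4.13% and 3.27% of non-cycling Trbv14- barcodes. Summed monocyte and macrophage markers stood at 1413, 104 and 844 CPM (counts scaled to the same total UMIs in every sum) in Trbv14+ sums and at 1751, 812 and 1907 CPM in non-cycling Trbv14- sums. Where leaving out the shared barcodes, or those with at least 5 myeloid UMIs, ended a call or brought a difference between days under 1.5-fold, the value without them is given beside it. This was not run for comparisons within a cycling state, against CD8 barcodes with another Trbv segment, or against Foxp3+ or Foxp3- CD4 barcodes. Below, without myeloid barcodes means that barcodes of a gate with at least 5 myeloid UMIs were left out. The myeloid barcodes whose levels are given form a separate gate.

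**Figure D1:**
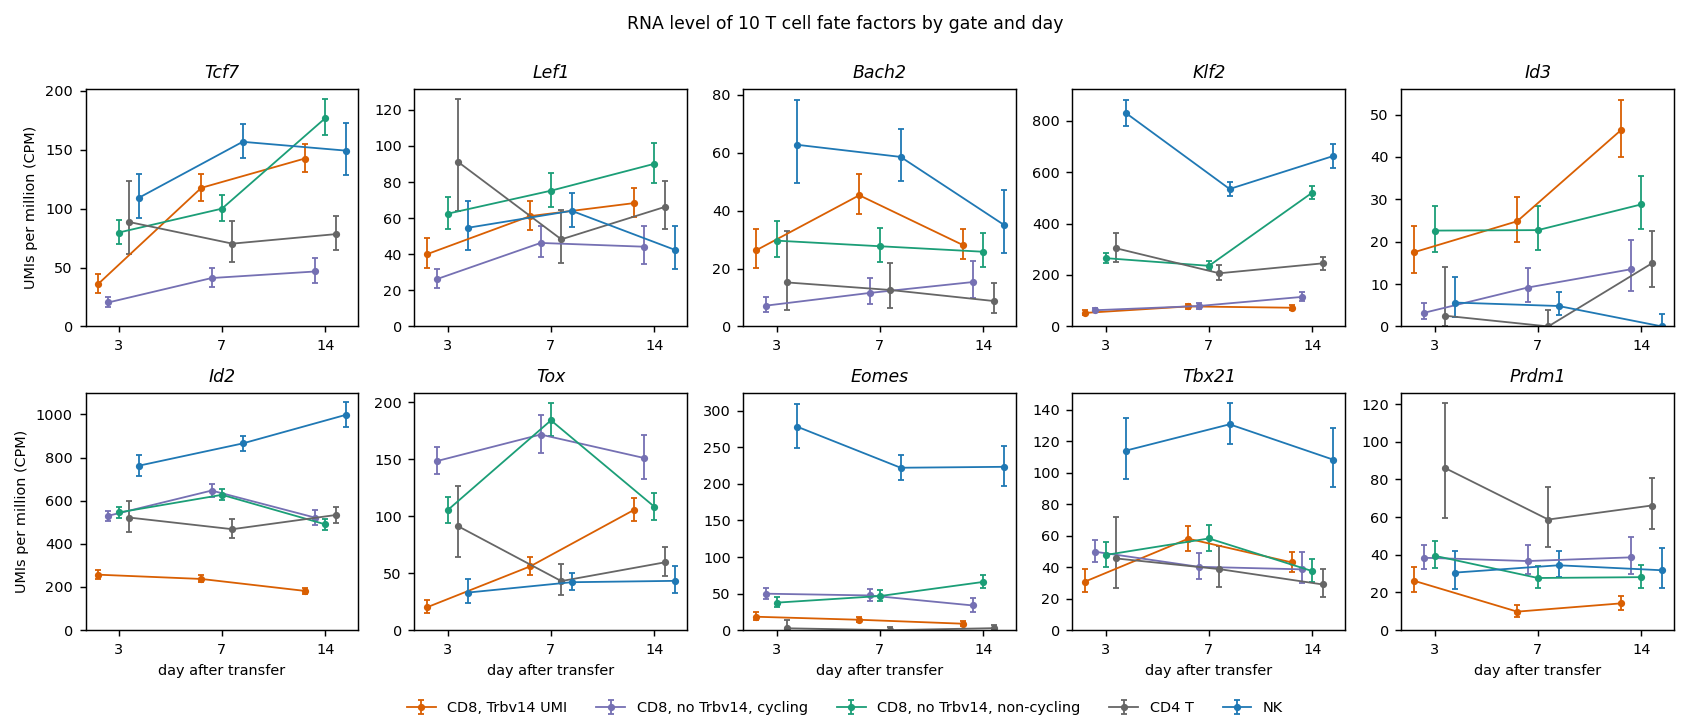
RNA level (y axis, CPM) of each of the 10 genes at days 3, 7 and 14 (x axis) in the 5 gates, summed over the barcodes of a gate. Points are 1 library each and bars are exact 95% Poisson intervals, which cover counting error only. NK barcodes had the highest Eomes, Tbx21, Id2 and Klf2 at every day, and Tox and Tcf7 in Trbv14+ barcodes were lowest at day 3.

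The first question was how these factors differed between the gates. Differences were tested with edgeR's quasi-likelihood test on the 15 sums (3 libraries by 5 gates), with the library as a block and Benjamini-Hochberg adjustment over 10295 genes. The error behind each test is how far a difference varied between the 3 days, each a pool of different mice. Whether fewer cells that express a gene or less RNA per cell lay behind a lower sum cannot be told apart from the sums alone.

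Trbv14+ CD8 barcodes held less Klf2, Id2, Tox, Eomes and Prdm1 RNA than non-cycling Trbv14- barcodes, and no factor was called higher. Of the 10 genes, 5 were called lower and 0 higher, where 16.5% of all genes tested were called lower, 16.8% higher and 33.4% in either direction. The median log2 difference over all genes was -0.06. Without barcodes with at least 5 myeloid UMIs all 5 were called as well, but without shared barcodes Tox and Prdm1 were not. Of the 5, only Id2 and Eomes were called under all 17 alternatives. Cycling Trbv14- barcodes showed another set: Tcf7, Lef1, Bach2, Klf2 and Id3 were lower than in non-cycling Trbv14- barcodes, and Id2, Tox, Eomes, Tbx21 and Prdm1 were not called. There 5 of 10 were called lower and 0 higher, against 15.1% of all genes lower, 14.7% higher and 29.7% in either direction. Both comparisons share the non-cycling Trbv14- sums, so they are not independent of each other.

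**Figure D2:**
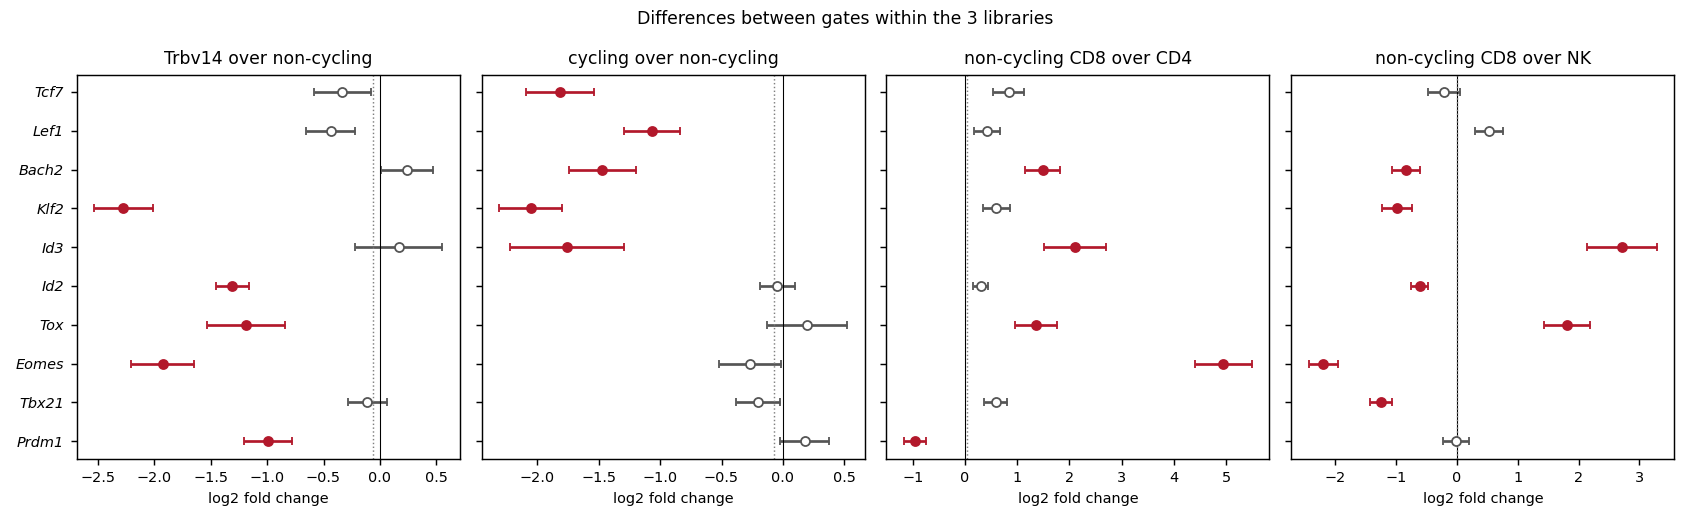
Log2 fold change (x axis) of each of the 10 genes between gates, with the standard error of edgeR's fit as bars; filled red points passed an adjusted p of 0.05, and dotted lines mark the median over all genes tested. Trbv14+ barcodes were lower in Klf2, Id2, Tox, Eomes and Prdm1, and cycling Trbv14- barcodes were lower in Tcf7, Lef1, Bach2, Klf2 and Id3, each relative to non-cycling Trbv14- barcodes.

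Tcf7 (chr11:52252371-52283014, minus strand) encodes TCF-1. Its level at days 3, 7 and 14 was 35.8, 118 and 142 CPM in Trbv14+ barcodes, 20.3, 41.1 and 46.6 CPM in cycling Trbv14- barcodes and 79.7, 99.99 and 177 CPM in non-cycling Trbv14- barcodes. It stood at 88.7, 70.3 and 78.3 CPM in CD4 barcodes and at 109, 157 and 149 CPM in NK barcodes. The cycling Trbv14- gate was lowest at each day and did not overlap with the non-cycling one. The difference was 3.51-fold (log2 -1.81 ± 0.28 SE, adjusted p = 0.000243, edgeR quasi-likelihood). The Trbv14+ and non-cycling Trbv14- gates overlapped over the days, and the difference was not called (log2 -0.33 ± 0.25, adjusted p = 0.334). Myeloid barcodes were gated apart, by at least 10 UMIs of Lyz2, C1qa, C1qb and Csf1r and no UMI of Cd3, Ncr1, Klrb1c or Cd79a. In these, with a median of 10444 to 11837 UMIs, Tcf7 lay at 0.431, 0.548 and 0.953 CPM, under every T cell and NK value.

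Lef1 (chr3:131110471-131224356, plus strand), the partner of TCF-1, had 40.0, 61.1 and 68.3 CPM in Trbv14+ barcodes at days 3, 7 and 14. It had 26.3, 46.3 and 44.2 CPM in cycling Trbv14- barcodes and 62.5, 75.2 and 90.1 CPM in non-cycling Trbv14- barcodes. All 3 cycling values were under all 3 non-cycling ones, by 2.10-fold (log2 -1.07 ± 0.23 SE, adjusted p = 0.00267). This call was lost among barcodes of at least 10000 UMIs, where the log2 difference was -0.30 (adjusted p = 0.266). NK barcodes, at 54.7, 64.1 and 42.4 CPM, did not differ from non-cycling Trbv14- barcodes beyond the test (adjusted p = 0.129).

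Bach2 (chr4:32238804-32586108, plus strand), a repressor that in B cells and T cells holds back terminal differentiation, had 26.2, 45.3 and 28.2 CPM in Trbv14+ barcodes. It had 7.19, 11.6 and 15.3 CPM in cycling Trbv14- barcodes, against 29.6, 27.7 and 25.8 CPM in non-cycling Trbv14- barcodes. The cycling gate was lower by 2.77-fold (log2 -1.47 ± 0.27 SE, adjusted p = 0.00107). Non-cycling Trbv14- barcodes exceeded CD4 barcodes, at 15.2, 12.6 and 8.78 CPM, by 2.80-fold (log2 1.48 ± 0.34, adjusted p = 0.0104). That call was lost without day 7 (log2 1.57, adjusted p = 0.0939), without day 14 (log2 1.29, adjusted p = 0.0859) and against CD4 barcodes with no Foxp3 UMI (log2 0.54, adjusted p = 0.523). They were under NK barcodes, at 62.7, 58.6 and 35.1 CPM, by 1.79-fold (log2 -0.84 ± 0.24, adjusted p = 0.0226). This call was lost under 4 of 13 alternatives: without day 3 (log2 -0.79, adjusted p = 0.0536), without day 7 (log2 -0.78, adjusted p = 0.170), without myeloid barcodes (log2 -0.76, adjusted p = 0.0571) and with no library block (log2 -0.86, adjusted p = 0.0536).

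Klf2 (chr8:72319033-72321656, plus strand) drives S1pr1, the receptor for leaving tissue. It had 52.5, 77.8 and 72.7 CPM in Trbv14+ barcodes and 63.0, 79.4 and 115 CPM in cycling Trbv14- barcodes, against 265, 236 and 520 CPM in non-cycling Trbv14- barcodes. Both gates lay far under the non-cycling one at each day. The difference was 4.83-fold for Trbv14+ barcodes (log2 -2.27 ± 0.26 SE, adjusted p = 5.61e-05) and 4.15-fold for cycling Trbv14- barcodes (log2 -2.05 ± 0.26, adjusted p = 4.82e-05). The Trbv14+ call was lost against CD8 barcodes with a UMI of another Trbv segment (log2 -0.93, adjusted p = 0.120) and when only cycling barcodes were compared (log2 -0.55, adjusted p = 0.292). NK barcodes, at 828, 534 and 662 CPM, were above non-cycling Trbv14- barcodes, which were lower by 1.98-fold (log2 -0.99 ± 0.24, adjusted p = 0.0103). This call was lost under 4 of 13 alternatives: without day 3 (log2 -0.70, adjusted p = 0.0746), without day 7 (log2 -0.96, adjusted p = 0.0589), without myeloid barcodes (log2 -0.90, adjusted p = 0.0638) and with no library block (log2 -0.91, adjusted p = 0.0597).

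Id3 (chr4:136143497-136145755, plus strand), an inhibitor of E proteins tied to memory precursors, was scarce. It had 17.5, 24.8 and 46.3 CPM in Trbv14+ barcodes, from 42, 91 and 189 UMIs, and 3.22, 9.17 and 13.5 CPM in cycling Trbv14- barcodes. Non-cycling Trbv14- barcodes had 22.6, 22.7 and 28.8 CPM. The cycling gate was lower by 3.37-fold (log2 -1.75 ± 0.46 SE, adjusted p = 0.0106), a call lost without day 3 (log2 -1.22, adjusted p = 0.117), with DESeq2 and with no library block. Non-cycling Trbv14- barcodes were 6.55-fold above NK barcodes (log2 2.71 ± 0.58, adjusted p = 0.00427), which held 7, 14 and 0 Id3 UMIs; a count of 0 at day 14 allows up to 2.45 CPM. CD4 barcodes held 1, 0 and 22 Id3 UMIs, where 0 at day 7 allows up to 3.15 CPM, and non-cycling Trbv14- barcodes were 4.28-fold above them (log2 2.10 ± 0.60, adjusted p = 0.0334). That call was lost without day 3 (log2 1.77, adjusted p = 0.101) and without day 7 (log2 1.60, adjusted p = 0.244), as well as without shared barcodes (log2 1.88, adjusted p = 0.0663), against Foxp3- CD4 barcodes (log2 1.63, adjusted p = 0.181) and with no library block.

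Id2 (chr12:25093799-25097140, minus strand), the E protein inhibitor of effector and NK cells, had its lowest level in Trbv14+ barcodes at each day. It had 257, 237 and 182 CPM in Trbv14+ barcodes and 530, 647 and 522 CPM in cycling Trbv14- barcodes, against 545, 627 and 490 CPM in non-cycling Trbv14- barcodes. No Trbv14+ value reached any value of the other gates. The Trbv14+ gate was 2.47-fold lower than the non-cycling Trbv14- gate (log2 -1.31 ± 0.14 SE, adjusted p = 4.43e-05), and the call held under all 17 alternatives. CD4 barcodes had 522, 468 and 534 CPM and did not differ from non-cycling Trbv14- barcodes beyond the test (adjusted p = 0.213). NK barcodes had 762, 865 and 998 CPM, 1.53-fold above non-cycling Trbv14- barcodes (log2 -0.61 ± 0.14 for non-cycling over NK, adjusted p = 0.00699), a call lost without day 14 (log2 -0.42, adjusted p = 0.0768).

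Tox (chr4:6686353-6991557, minus strand) had 19.998, 56.0 and 105 CPM in Trbv14+ barcodes at days 3, 7 and 14. It had 148, 171 and 151 CPM in cycling Trbv14- barcodes and 105, 184 and 108 CPM in non-cycling Trbv14- barcodes. The Trbv14+ gate was under the others at days 3 and 7 and level with the non-cycling gate at day 14. Over the 3 days the difference was 2.27-fold (log2 -1.18 ± 0.34 SE, adjusted p = 0.0167). This call was lost under 6 of 17 alternatives, among them leaving out day 7 (log2 -0.86, adjusted p = 0.195) or the shared barcodes (log2 -0.90, adjusted p = 0.107). A fit of these 2 gates alone also lost it. Non-cycling Trbv14- barcodes were 3.51-fold above NK barcodes, which had 33.0, 42.0 and 43.2 CPM (log2 1.81 ± 0.38, adjusted p = 0.00380), not called without day 7 (log2 1.54, adjusted p = 0.0842). They were 2.56-fold above CD4 barcodes, at 91.2, 43.0 and 59.4 CPM (log2 1.36 ± 0.40, adjusted p = 0.0402), a call lost under 7 of 15 alternatives, among them leaving out day 7 (log2 0.84, adjusted p = 0.476), day 14 (log2 1.38, adjusted p = 0.0906) or the shared barcodes (log2 1.39, adjusted p = 0.0539).

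Eomes (chr9:118478212-118486132, plus strand) and Tbx21 (chr11:97098071-97115331, minus strand) encode the pair of T-box factors that share target sites in effector CD8 and NK cells. Their upstream regions are shown because the pair was read differently in Trbv14+ barcodes, where Eomes was lower and Tbx21 was not. Each line holds the 250 bases before the RefSeq transcript start (build GRCm38.p6, chr9:118477939-118478188 on the plus strand for Eomes and chr11:97115332-97115581 on the minus strand for Tbx21), 5′ to 3′ in the direction of transcription. Capitals mark matches on either strand to CTTTGA (the TCF/LEF core), GGTGTG (a T-box half-site), CANNTG (the E-box that E proteins bind) or GGGCGG (a GC box, a sequence that KLF and Sp factors bind).
Eomes: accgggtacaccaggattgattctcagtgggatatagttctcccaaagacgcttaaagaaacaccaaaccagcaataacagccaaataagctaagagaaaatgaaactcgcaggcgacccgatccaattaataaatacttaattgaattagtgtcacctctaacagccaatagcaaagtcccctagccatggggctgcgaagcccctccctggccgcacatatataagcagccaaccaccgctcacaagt
Tbx21: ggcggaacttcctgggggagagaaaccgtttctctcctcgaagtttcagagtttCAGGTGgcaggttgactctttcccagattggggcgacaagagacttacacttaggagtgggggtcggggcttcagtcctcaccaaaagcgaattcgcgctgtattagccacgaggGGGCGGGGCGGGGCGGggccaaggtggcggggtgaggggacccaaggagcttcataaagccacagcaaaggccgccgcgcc
The Eomes window held no match to the 4 motifs and was 46.4% G and C. The Tbx21 window held 1 CANNTG and 3 overlapping GGGCGG matches, no match to the other motifs, and was 60.8% G and C. Of 32851 windows of the same length in the table, 66.2% held CANNTG, 32.7% GGGCGG, 16.3% GGTGTG and 13.8% CTTTGA. These matches describe letters in a window and show no binding.

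Eomes had 18.3, 14.2 and 8.81 CPM in Trbv14+ barcodes, from 44, 52 and 36 UMIs, and 49.8, 47.5 and 33.7 CPM in cycling Trbv14- barcodes. Non-cycling Trbv14- barcodes had 37.6, 46.6 and 66.0 CPM. The Trbv14+ values were all under those of the other CD8 gates. The difference from non-cycling Trbv14- barcodes was 3.79-fold (log2 -1.92 ± 0.28 SE, adjusted p = 0.000215) and was called under all 17 alternatives. NK barcodes had 278, 222 and 223 CPM, and non-cycling Trbv14- barcodes were 4.57-fold lower than these (log2 -2.19 ± 0.24, adjusted p = 1.80e-05). CD4 barcodes held only 1, 0 and 4 Eomes UMIs. Non-cycling Trbv14- barcodes lay above them at each day, with a fitted log2 difference of 4.95 ± 0.55 (adjusted p = 4.14e-05), a value that depends on the near absence of counts in CD4 barcodes; at day 14 the ratio of CPM was 24.4 with a 95% counting interval of 9.39 to 90.5.

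Tbx21 had 30.8, 58.1 and 43.1 CPM in Trbv14+ barcodes, 49.8, 40.3 and 38.7 CPM in cycling Trbv14- barcodes and 47.8, 58.3 and 37.5 CPM in non-cycling Trbv14- barcodes. The CD8 gates overlapped, and no difference between them was called (log2 -0.11 ± 0.17 for Trbv14+ over non-cycling Trbv14-, adjusted p = 0.663). NK barcodes had 114, 131 and 108 CPM. Non-cycling Trbv14- barcodes were 2.38-fold under them (log2 -1.25 ± 0.17, adjusted p = 0.000180), and the call held under all 13 alternatives.

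Prdm1 (chr10:44437177-44528501, minus strand), which encodes BLIMP-1, had 26.2, 9.83 and 14.2 CPM in Trbv14+ barcodes and 38.4, 36.7 and 38.7 CPM in cycling Trbv14- barcodes, against 39.5, 27.7 and 28.1 CPM in non-cycling Trbv14- barcodes. The Trbv14+ gate was 1.99-fold lower (log2 -0.99 ± 0.21 SE, adjusted p = 0.00275), a call lost without day 14 (log2 -0.96, adjusted p = 0.0692), without the shared barcodes (log2 -0.85, adjusted p = 0.0564) and when only non-cycling Trbv14+ barcodes were used (log2 -0.91, adjusted p = 0.0891). CD4 barcodes were highest among T cells, at 86.1, 58.7 and 66.2 CPM, and non-cycling Trbv14- barcodes were 1.94-fold under them (log2 -0.96 ± 0.21, adjusted p = 0.00818). That call was lost without day 14 (log2 -0.94, adjusted p = 0.133), without shared barcodes (log2 -0.71, adjusted p = 0.140) and against Foxp3- CD4 barcodes (log2 -0.33, adjusted p = 0.590). Myeloid barcodes held 107, 92.5 and 68.3 CPM of Prdm1, more than any CD8 gate. At day 3, 25 of 79 Trbv14+ barcodes had at least 5 UMIs of 5 myeloid genes (Lyz2, C1qa, C1qb, Cd68 and Csf1r), and the other 54 held 9.23 CPM of Prdm1. This cut is a fixed number of UMIs, so a deep barcode passes it more readily. Median UMIs were 26176 in all 79 and 19892.5 in the 54. Whether myeloid RNA or depth lay behind the difference in Prdm1 was not tested.

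Against CD4 barcodes, 5 of the 10 genes were called in non-cycling Trbv14- barcodes (Bach2, Id3, Tox and Eomes higher, Prdm1 lower), where 5.24% of all genes were called higher, 5.78% lower and 11.0% in either direction. Against NK barcodes 7 were called (Id3 and Tox higher, Bach2, Klf2, Id2, Eomes and Tbx21 lower), where 10.3% of all genes were called higher, 8.47% lower and 18.7% in either direction. Leaving out day 7 cut these counts to 2 and 4, and leaving out day 14 cut the first to 2. Fewer of all genes were called as well whenever a day was left out, with the ranges given in the last section. Runx3, a partner of T-bet in CD8 and NK cells, was higher than in CD4 barcodes (log2 0.89 ± 0.14, adjusted p = 0.000630) and lower than in NK barcodes (log2 -0.69 ± 0.13, adjusted p = 0.00198).

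The CD4 gate was a mixture with respect to these factors. Foxp3, the factor of regulatory T cells, was found in 19, 31 and 49 CD4 barcodes at days 3, 7 and 14. Tcf7 was at 0, 0 and 31.3 CPM in the Foxp3+ barcodes, against 263, 171 and 144 CPM in the Foxp3- ones; the counts of 0 allow up to 11.5 and 5.34 CPM. Klf2 was at 87.8, 74.8 and 78.8 CPM in Foxp3+ barcodes and at 730, 395 and 477 CPM in Foxp3- barcodes. Prdm1 went the other way, with 103, 71.3 and 85.8 CPM in Foxp3+ barcodes and 52.7, 40.8 and 38.8 CPM in Foxp3- barcodes. The difference between Foxp3+ and Foxp3- barcodes was not tested. Foxp3+ barcodes were also more often cycling: 15.8%, 45.2% and 36.7% passed the cycling cut, against 0%, 3.45% and 6.06% of Foxp3- ones. Their median UMIs were 6660, 15142 and 16191, against 4315, 5695 and 4578 in Foxp3- barcodes. Non-cycling Trbv14- barcodes hold none past the cycling cut. Whether cycling or depth lay behind the differences from Foxp3+ barcodes was not tested. Against Foxp3+ barcodes only, where 15.4% of all genes were called, non-cycling Trbv14- barcodes were higher in Tcf7 (log2 3.40, adjusted p = 0.000258), Lef1 (1.07), Bach2 (2.75), Klf2 (2.31), Id3 (2.40), Id2 (0.47) and Eomes (4.58), and lower in Prdm1 (-1.23). Against Foxp3- barcodes, where 6.64% of all genes were called, 2 of 10 were, Tox (log2 1.89, adjusted p = 0.0215) and Eomes (5.84, adjusted p = 0.000843), and Tcf7 had the opposite sign (-0.41, adjusted p = 0.581).

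Because many Trbv14+ barcodes were cycling, they were also set against Trbv14- barcodes on the same side of the cycling cut, a comparison added after the data were seen. The cut is a fixed number of UMIs, so a deep barcode passes it more readily. Median UMIs were 41665, 36233 and 34666 in cycling and 15843, 12474 and 15849 in non-cycling Trbv14+ barcodes. Each exceeded the Trbv14- median of the same side and day, so depth was not matched. Shared barcodes made up 48.7%, 58.9% and 28.6% of cycling and 15%, 5.71% and 0% of non-cycling Trbv14+ barcodes. The calls within a cycling state were not repeated without shared or myeloid barcodes. Among cycling barcodes (39, 56 and 84 Trbv14+ ones at days 3, 7 and 14), Trbv14+ barcodes held more Tcf7 and Bach2 and less Id2, Eomes and Prdm1 than Trbv14- barcodes. Tcf7 had 30.2, 105 and 130 CPM in cycling Trbv14+ barcodes, against 20.3, 41.1 and 46.6 CPM in cycling Trbv14- barcodes (log2 1.31, adjusted p = 0.0349). Bach2 had 22.3, 38.9 and 27.7 CPM in cycling Trbv14+ barcodes, against 7.19, 11.6 and 15.3 CPM in cycling Trbv14- barcodes (log2 1.52, adjusted p = 0.0206). Both were higher in Trbv14+ barcodes at each of the 3 days. Id3 had 19.3, 27.7 and 35.0 CPM in cycling Trbv14+ barcodes and 3.22, 9.17 and 13.5 CPM in cycling Trbv14- barcodes, but the difference did not pass (log2 1.81, adjusted p = 0.0923).

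Id2 was lower in cycling Trbv14+ than in cycling Trbv14- barcodes by 1.39 on the log2 scale as well (log2 -1.39, adjusted p = 0.00112), Eomes had log2 -1.70 (adjusted p = 0.00359) and Prdm1 log2 -1.21 (adjusted p = 0.0177). Tox had log2 -1.33 and did not pass (adjusted p = 0.0585), and Klf2 had log2 -0.55 (adjusted p = 0.292). In this comparison 1.84% of all genes tested were called in either direction. Among non-cycling barcodes (40, 105 and 52 Trbv14+ ones), where 1.99% of all genes were called, Klf2 (log2 -1.66, adjusted p = 0.00759), Id2 (-1.08, adjusted p = 0.00617) and Eomes (-1.75, adjusted p = 0.0147) were lower in Trbv14+ barcodes. Prdm1 (log2 -0.91, adjusted p = 0.0891) and Tox (log2 -1.18, adjusted p = 0.109) did not pass there, and Tcf7 had log2 0.10 (adjusted p = 0.900). Id2 and Eomes were thus lower with a Trbv14 UMI in both cycling states. Set against CD8 barcodes with a UMI of another Trbv segment, of which there were 38, 41 and 23, where 1.70% of all genes were called, Trbv14+ barcodes were lower in Id2 (log2 -1.45), Tox (-1.68), Eomes (-2.05) and Prdm1 (-1.21) and higher in Bach2 (2.06, adjusted p = 0.0227), while Klf2 did not pass (-0.93, adjusted p = 0.120). The barcodes with another segment had medians of 25462, 19827 and 8279 UMIs, and 57.9%, 43.9% and 34.8% passed the cycling cut. At day 14 Trbv14+ barcodes had a median of 25920 UMIs and 61.8% passed, so neither depth nor cycling was matched there. Those past the cut, 22, 18 and 8, also stayed in the cycling Trbv14- sums of the same fit.

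**Figure D3:**
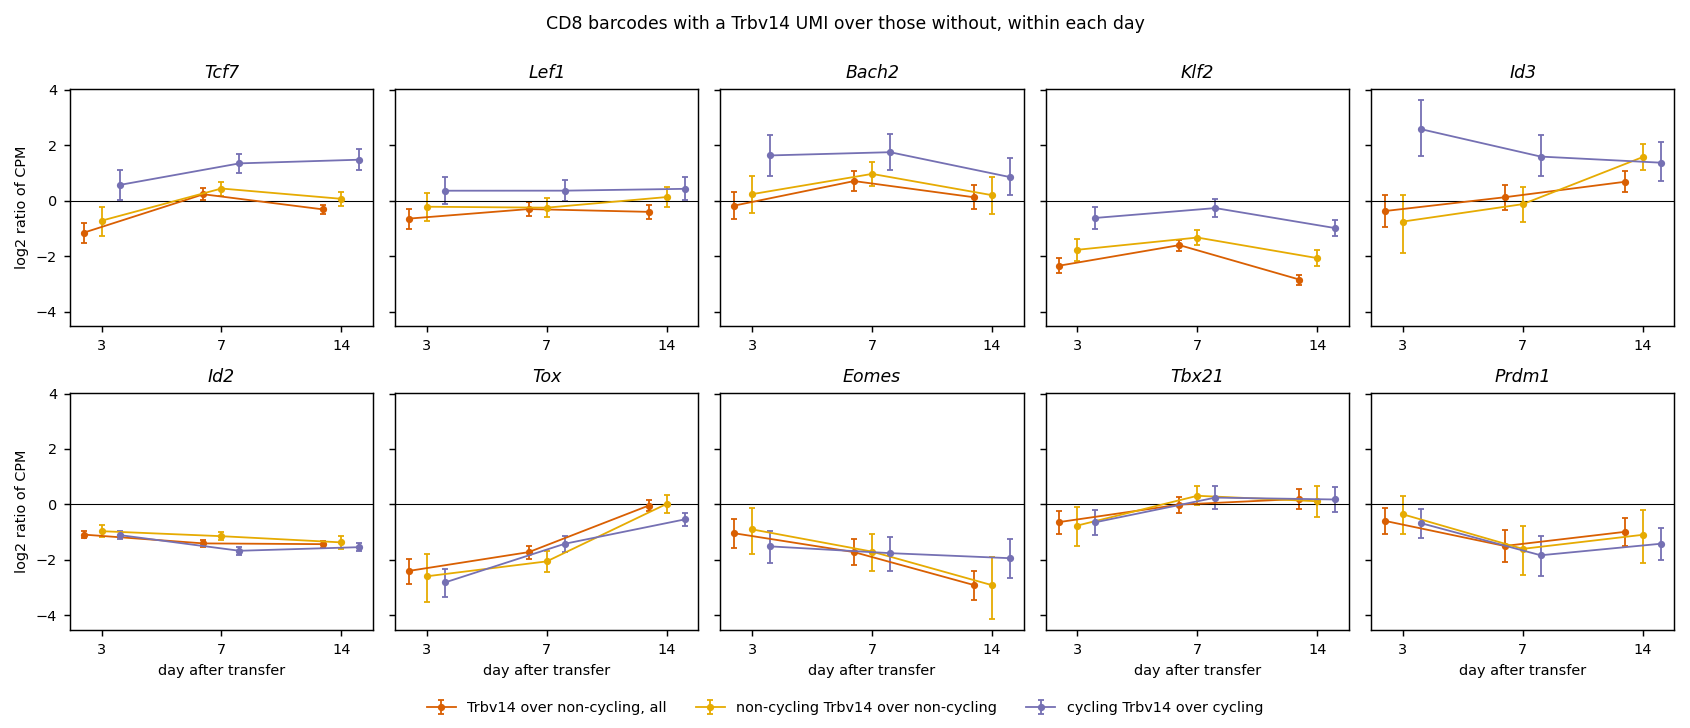
Log2 ratio of CPM (y axis) of CD8 barcodes with a Trbv14 UMI over those without, at days 3, 7 and 14 (x axis), for all Trbv14+ over non-cycling Trbv14- barcodes and within each cycling state; bars are exact 95% counting intervals. Id2 and Eomes lay under 0 at every day in each comparison, Tcf7, Bach2 and Id3 lay above 0 among cycling barcodes, and Tox came closer to 0 at day 14.

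The second question was how the factors changed over the days after transfer. With 1 library per day there is no test between days, and the intervals cover counting error only; UMIs of 1 cell are not independent, so the true error is larger. A gene was taken as past the size rule where its CPM differed by at least 1.5-fold, the 95% interval of the ratio left out 1 and at least 20 UMIs were counted. Over all CD8 barcodes, Tcf7 was at 43.7, 91.3 and 136 CPM and Id3 at 13.2, 19.997 and 34.1 CPM at days 3, 7 and 14, while Prdm1 was at 35.7, 23.2 and 23.6 CPM. These sums pool the CD8 gates, whose shares changed between days. Cycling Trbv14- barcodes gave 4032241 of 9570790 UMIs at day 3, 2507396 of 9601598 at day 7 and 1629891 of 8699618 at day 14. Tcf7, Lef1, Bach2, Klf2 and Id3 were lower in that gate than in the non-cycling one. Whether the change in shares lay behind the differences between days was not tested. From day 3 to day 7, 4 of the 10 passed over all CD8 barcodes (Tcf7, Bach2 and Id3 higher, Prdm1 lower), against 5.78% of all genes higher, 10.9% lower and 16.7% in either direction. None of the 4 was past 1.5-fold under every alternative. By the mean over cells, which gives shallow and deep cells the same weight, day 7 stood to day 3 at log2 0.38 for Tcf7 (1.06 by sums), -0.0034 for Bach2 (0.64 by sums), -0.071 for Id3 (0.60 by sums) and -0.55 for Prdm1 (-0.62 by sums). Without myeloid barcodes Bach2 was at 0.58 and Prdm1 at -0.36, and without shared barcodes Bach2 was at 0.54 and Id3 at 0.48, all under 1.5-fold. From day 7 to day 14, 2 passed (Klf2 and Id3, higher; 5.69% of all genes higher, 3.76% lower and 9.45% in all), and between days 14 and 3, 5 passed (Tcf7, Lef1, Klf2 and Id3 higher, Prdm1 lower; 4.33% of all genes higher, 6.06% lower and 10.4% in all). Of these, Tcf7 was at log2 0.96 by the mean over cells (1.64 by sums). Lef1 fell under 1.5-fold without shared barcodes (log2 0.52) and by the mean over cells (0.33), and Prdm1 did so without myeloid barcodes (-0.49), without shared barcodes (-0.53) and by the mean over cells (-0.51).

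In Trbv14+ barcodes both Tcf7 and Tox were higher at the later days. Tcf7 was 3.28-fold higher at day 7 than at day 3 (95% interval 2.60 to 4.19) and 3.98-fold higher at day 14 than at day 3 (3.17 to 5.05). Tox was 2.80-fold higher at day 7 than at day 3 (2.03 to 3.92) and 1.88-fold higher at day 14 than at day 7 (1.59 to 2.23). Both were also higher within each cycling state. In non-cycling Trbv14+ barcodes Tcf7 had 48.4, 136 and 186 CPM and Tox 17.5, 44.4 and 110 CPM at days 3, 7 and 14, and in cycling ones Tox had 21.1, 64.3 and 104 CPM.

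Id3 in Trbv14+ barcodes was 1.86-fold higher at day 14 than at day 7 (1.44 to 2.42; log2 0.90, and 1.56 by the mean over cells), Lef1 was 1.71-fold higher at day 14 than at day 3 (1.35 to 2.18, log2 0.77) and Tbx21 was 1.89-fold higher at day 7 than at day 3 (1.44 to 2.49). The Lef1 value dropped to log2 0.23 without myeloid barcodes, 0.49 without shared barcodes and 0.31 by the mean over cells. Between days 7 and 3, Lef1 was at log2 0.61, and at 0.073, 0.53 and 0.12 under the same alternatives. Bach2 was 1.73-fold higher at day 7 than at day 3 (1.28 to 2.35) and 1.61-fold lower at day 14 than at day 7 (1.26 to 2.06). Eomes was 2.08-fold lower at day 14 than at day 3 (1.31 to 3.33). Without myeloid barcodes the rise of Bach2 to day 7 was log2 0.58 and the Eomes ratio log2 -0.58 (-0.57 for day 14 over day 7), each just under 1.5-fold. Prdm1 was 2.67-fold lower at day 7 than at day 3 (1.75 to 4.14), but without barcodes with at least 5 myeloid UMIs it was at 9.23, 9.40 and 13.6 CPM at days 3, 7 and 14, with no such difference, and without shared barcodes the log2 ratio was -2.22 (-1.42 with them). In all, 6 of 10 passed between days 7 and 3 (5 higher, 1 lower; 10.5% of all genes higher, 15.4% lower and 25.9% in all), 4 between days 14 and 7 (2 higher, 2 lower; 6.57% of all genes higher, 6.14% lower and 12.7% in all) and 6 between days 14 and 3 (4 higher, 2 lower; 8.06% of all genes higher, 11.6% lower and 19.6% in all).

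In cycling Trbv14- barcodes Tcf7 was 2.29-fold (1.66 to 3.17), Lef1 1.68-fold, Bach2 2.13-fold, Klf2 1.82-fold and Id3 4.19-fold higher at day 14 than at day 3. Bach2 and Id3 rest on 25 and 22 UMIs at day 14. Lef1 was under 1.5-fold without shared barcodes (log2 0.28) and by the mean over cells (0.15), as was Bach2 by the mean over cells (0.40), and Id3 fell to log2 1.21 without shared barcodes (2.07 with them). These were 5 of 10 past the size rule there, all higher, where 4.07% of all genes were higher, 6.51% lower and 10.6% in all. Between days 7 and 3, 3 of 10 passed (Tcf7, Lef1 and Id3, higher; 3.97% of all genes higher, 7.92% lower and 11.9% in all), of which Tcf7 was at log2 0.31 without shared barcodes (1.01 with them) and Lef1 at 0.54 by the mean over cells. Between days 14 and 7, 0 of 10 passed (4.79% of all genes higher, 3.37% lower and 8.17% in all).

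In non-cycling Trbv14- barcodes Klf2 was 2.21-fold higher at day 14 than at day 7 (2.03 to 2.41) and Tcf7 1.77-fold (1.54 to 2.03). Tox was 1.75-fold higher at day 7 than at day 3 (1.53 to 2.00) and 1.70-fold lower at day 14 than at day 7 (1.48 to 1.95). Tox thus moved in opposite directions between days 7 and 14 in Trbv14+ and non-cycling Trbv14- barcodes, and at day 14 both stood near the same level. Tbx21 was 1.55-fold lower at day 14 than at day 7 (log2 -0.51 without myeloid barcodes and -0.47 by the mean over cells, both under 1.5-fold), and Eomes was 1.76-fold higher at day 14 than at day 3 (1.39 to 2.22). In all, 1 of 10 passed between days 7 and 3 (4.48% of all genes higher, 8.18% lower and 12.7% in all). Between days 14 and 7, 4 passed (5.0% of all genes higher, 5.23% lower and 10.2% in all), and between days 14 and 3, 3 passed, all higher (4.03% of all genes higher, 7.37% lower and 11.4% in all).

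In NK and CD4 barcodes 1 or 2 of the 10 genes passed in each comparison of days. In NK barcodes Klf2 was 1.55-fold lower at day 7 than at day 3 (1.43 to 1.68), the only one of 10 past the rule (3.27% of all genes higher, 5.10% lower and 8.37% in all). Between days 14 and 7 Lef1 (1.51-fold) and Bach2 (1.67-fold) were lower (3.50% of all genes higher, 5.48% lower and 8.98% in all), and between days 14 and 3 Bach2 was 1.79-fold lower (3.98% of all genes higher, 8.15% lower and 12.1% in all). Each of these NK differences fell under 1.5-fold by the mean over cells (log2 -0.36 to -0.57), Klf2 also without shared barcodes (log2 -0.54) and Lef1 without myeloid barcodes (log2 -0.56). In CD4 barcodes Lef1 was 1.89-fold and Tox 2.12-fold lower at day 7 than at day 3 (5.93% of all genes higher, 10.0% lower and 15.9% in all), from only 36 UMIs of each at day 3. Id3 was past the rule between days 14 and 7, with 22 UMIs at day 14 and 0 at day 7 (6.29% of all genes higher, 5.67% lower and 12.0% in all), and Tox was 1.53-fold lower at day 14 than at day 3 (2.99% of all genes higher, 7.46% lower and 10.4% in all). The last of these was under 1.5-fold with TMM scaling (log2 -0.50).

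The third question was which factors were found in the same cells. Each CD8 barcode was thinned at random to 3000 UMIs, so that deep cells did not hold every gene more often, which left 445, 545 and 480 CD8 barcodes at days 3, 7 and 14. Tcf7 was found in 72, 120 and 140 of them. In myeloid barcodes thinned alike it was found in 0.168%, 0.129% and 0.369%. Intervals are exact 95% binomial (Clopper-Pearson) ones for counting error over the cells of 1 library. The CD8 shares pool Trbv14+, cycling and non-cycling Trbv14- barcodes, which differed in Tcf7, Lef1, Klf2, Id2 and Tox RNA. Shares within each gate were not computed. Gaps that come from differences between gates therefore cannot be told apart from gaps within a gate.

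Lef1 and Klf2 were found more often in barcodes with Tcf7, and Tox less often at days 3 and 7. Klf2 was found in 65.3%, 44.2% and 60.7% of barcodes with Tcf7 at days 3, 7 and 14, against 20.4%, 17.4% and 28.2% of those without. Lef1 was found in 44.4%, 33.3% and 35.0% of barcodes with Tcf7, against 8.58%, 16.7% and 17.6% without. The intervals of both genes with and without Tcf7 were apart at each day. Id3 was found in 9.72%, 11.7% and 14.3% of barcodes with Tcf7, against 4.02%, 3.29% and 5.88% without, with overlapping intervals at day 3. The gaps depended on the depth to which barcodes were thinned. With minus without Tcf7, the Lef1 gap was 35.9, 16.6 and 17.4 percentage points at 3000 UMIs, 23.6, 2.02 and 8.25 points at 1500 UMIs and 39.3, 17.7 and 29.7 points at 5000 UMIs. The Klf2 gap was 57.3, 17.9 and 25.4 points at 1500 UMIs, and the Id3 gap was 5.72, -1.07 and 0.388 points.

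Tox was found in 5.56% (1.53 to 13.6), 6.67% (2.92 to 12.7) and 17.9% (11.9 to 25.2) of barcodes with Tcf7, against 23.1% (18.9 to 27.7), 32.9% (28.5 to 37.6) and 24.7% (20.2 to 29.6) of those without. The intervals were apart at days 3 and 7 and overlapped at day 14. Thinned to 1500 UMIs the Tox gap was -12.4, -8.87 and 0.0353 percentage points, against -17.5, -26.3 and -6.85 points at 3000 UMIs. Id2 was found in 34.7%, 39.2% and 37.1% of barcodes with Tcf7, against 56.3%, 66.4% and 46.8% without, with overlapping intervals at day 14. Pdcd1, the gene of the inhibitory receptor PD-1, was found in 8.33%, 9.17% and 19.3% of barcodes with Tcf7, against 31.4%, 36.9% and 26.5% without, also with overlapping intervals at day 14. Gzmb, which encodes granzyme B, was found in 34.7%, 11.7% and 15.7% of barcodes with Tcf7, against 76.4%, 58.4% and 42.6% without.

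**Figure D4:**
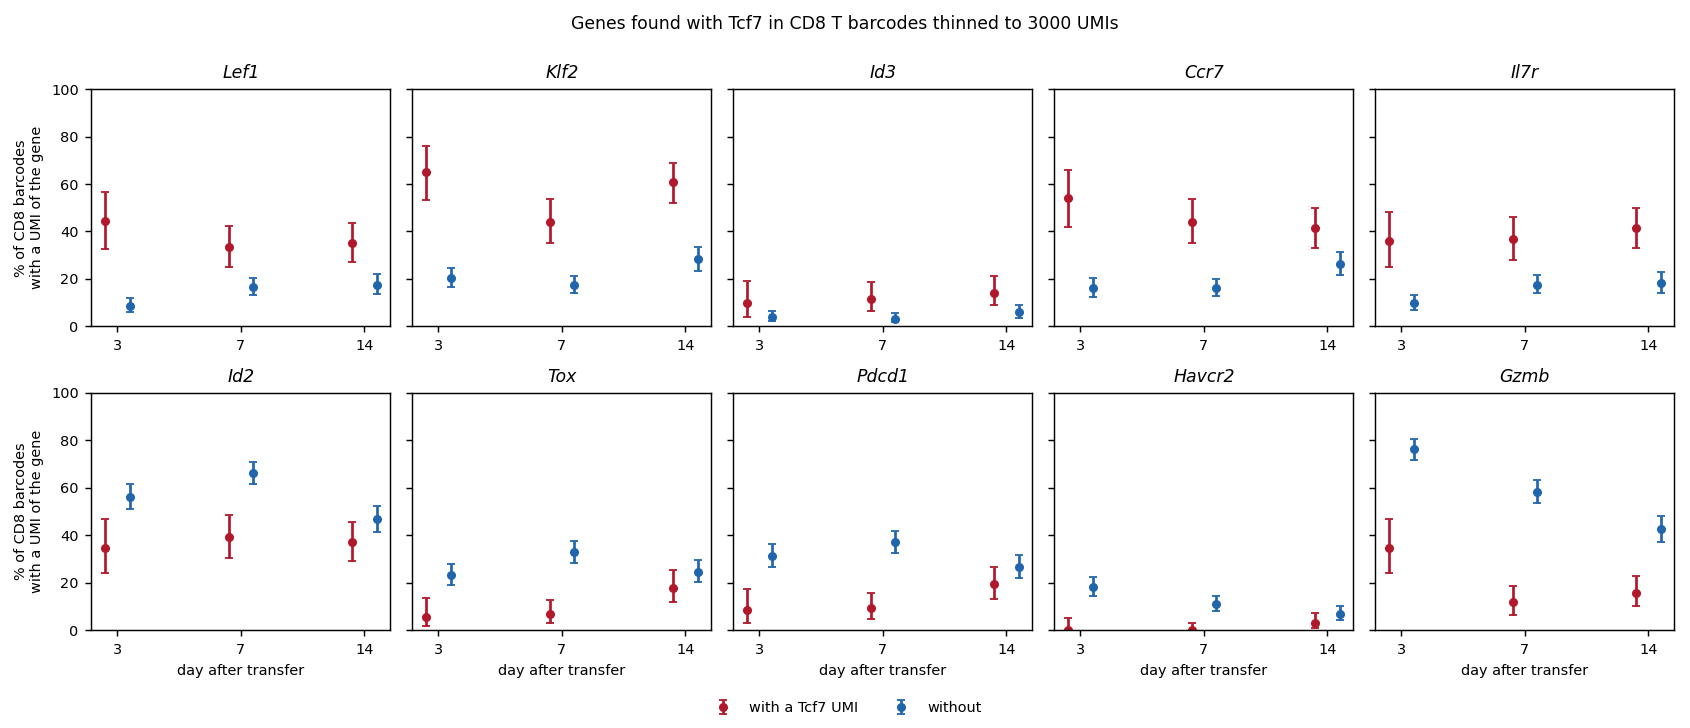
Share of CD8 barcodes (y axis, %) with a UMI of the named gene among barcodes with and without a Tcf7 UMI, at days 3, 7 and 14 (x axis). The CD8 gates are pooled, all barcodes are thinned to 3000 UMIs, and bars are exact 95% binomial intervals. Lef1, Klf2, Id3, Ccr7 and Il7r were found more often with Tcf7 and Id2, Tox, Pdcd1, Havcr2 and Gzmb more often without it, and the gap in Tox and Pdcd1 was narrower at day 14.

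In NK barcodes the intervals with and without Tcf7 overlapped for both genes at each day. There Klf2 was found in 68.5%, 65.7% and 74.5% of barcodes with Tcf7, against 72.0%, 64.8% and 63.6% without, and Tox in 9.26%, 15.7% and 10.6% with Tcf7, against 10.6%, 9.38% and 10.1% without. Among CD8 barcodes, Pdcd1 was found in 53.3%, 53.4% and 45.0% of those with Tox, against 21.1%, 22.4% and 18.3% without. Eomes was found in 15.6%, 14.9% and 15.6% of barcodes with Tox, against 9.30%, 6.80% and 10.2% without, with overlapping intervals at each day. Tbx21 was found in 8.51%, 12.2% and 9.09% of barcodes with Eomes and in 13.6%, 15.5% and 11.8% of those without. Id3 was found in 1.70%, 3.04% and 6.16% of barcodes with Id2, against 8.57%, 8.33% and 10.0% without, and these intervals were apart at day 3 alone.

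Genes tied to these factors were taken from 4 lists of partners, quiescence and homing genes, effector genes, and activation and exhaustion factors. Of 13 measured quiescence and homing genes, 10 were lower and 0 higher in cycling than in non-cycling Trbv14- barcodes, with a median log2 difference of -1.24, where 15.1% of all genes were lower, 14.7% higher and the median over all genes was -0.07. Bcl2, a survival gene, had log2 -2.02 ± 0.23 (adjusted p = 2.35e-05) and Satb1, a chromatin organiser, -1.48 ± 0.25 (adjusted p = 0.000546). Cd27, of the same list, had log2 -0.36 ± 0.16 and did not pass (adjusted p = 0.110). In Trbv14+ barcodes 5 of the 13 were lower and 2 higher, with a median of -0.12 (16.5% of all genes lower, 16.8% higher, median -0.06); Xcl1, a chemokine for dendritic cells, was higher (log2 1.38 ± 0.26, adjusted p = 0.00133).

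Of 12 effector genes, 6 were lower and 0 higher in Trbv14+ than in non-cycling Trbv14- barcodes (median log2 -0.71), where 16.5% of all genes were lower, 16.8% higher and the median was -0.06. Ccl5, a chemokine of effector and memory cells, had log2 -2.66 ± 0.52 (adjusted p = 0.00150) and Il2rb, a receptor chain for IL-2 and IL-15 that T-bet and Eomesodermin drive, -0.73 ± 0.14 (adjusted p = 0.00107), while Gzmb had 0.38 ± 0.29 (adjusted p = 0.341). Gzma had log2 -0.22 ± 0.82 and did not pass (adjusted p = 0.869). Non-cycling Trbv14- barcodes held 7 of the 12 at a higher and 2 at a lower level than CD4 barcodes (median log2 1.59), where 5.24% of all genes were higher, 5.78% lower and the median was 0.03. They held 3 at a higher and 4 at a lower level than NK barcodes (median -0.13), where 10.3% of all genes were higher, 8.47% lower and the median was 0.01. Of 11 partners of the factors, 4 were lower in Trbv14+ barcodes (Id1, Runx3, Tcf4 and Tle3), 5 were lower in cycling Trbv14- barcodes, and none was higher in either, each relative to non-cycling Trbv14- barcodes. Their medians were -0.30 in Trbv14+ and -0.51 in cycling Trbv14- barcodes, where 16.5% and 15.1% of all genes were lower. Of 15 activation and exhaustion factors, 4 were lower in Trbv14+ barcodes (Ikzf2, Maf, Nfil3 and Rora), with a median of -0.09, and 2 in cycling Trbv14- barcodes (Irf4 and Nr4a3), with a median of -0.33. Against the same 16.5% and 15.1% of all genes, 2 of 15 is near the background.

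Over the 15 gate and day values, the genes whose level followed each factor most closely (Pearson r of log2(CPM + 10), 9473 genes, no test since the values share libraries) were Ndufa6 (0.90) for Tcf7, Frat2 (0.88) for Lef1, Foxp1 (0.94) for Bach2, Phf3 (0.96) for Klf2, Ccr7 (0.90) for Id3, C1qtnf6 (0.90) for Id2, Tnfsf13b (0.89) for Tox, Ugcg (0.97) for Eomes, Styk1 (0.97) for Tbx21 and Skap2 (0.91) for Prdm1. The second in each case were Dcaf8, Usp53, Nr4a3, Abcg1, Mgst2, Pdgfb, Ccdc30, Ncald, Car2 and Emp3. Between the factors themselves, r was highest for Eomes and Tbx21 (0.81), both highest in NK barcodes, followed by Bach2 and Tbx21 (0.74) and Tcf7 and Lef1 (0.72), and lowest for Id3 and Id2 (-0.65). With a pseudocount of 1 the nearest 2 genes differed for 8 of the 10 factors.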

How the data were processed

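Single-cell RNA was measured in 3 libraries of CD45+ tumour cells, 1 per day. The deposited matrices hold raw UMI counts. Per the submitters' processing notes, Cell Ranger 4.0.0 and the build mm10 were used; which annotation release served for counting is not given in the sources used here. For the CD45+ isolation, the labels name both a cell sorter and magnetic beads. From the counts, barcodes of at least 1500 UMIs were gated by 10 genes, which were left out of all tests, and summed per library and gate. Doublets were not called; shared barcodes and those with at least 5 myeloid UMIs were left out as alternatives. Gates were compared with edgeR 4.0.16 (R 4.3.3; quasi-likelihood, TMM, filterByExpr, library block; standard errors are the log2 fold change divided by the square root of the F statistic), with DESeq2 1.42.0 as an alternative. Libraries count as 3 pools of different mice at different days. The p-values measure the spread over days, estimated over all 5 gates at once. Days were compared without a test, by exact conditional intervals. On simulated data the edgeR step was checked. Shares came from barcodes thinned to 3000 UMIs (Python 3.11.15, numpy 2.4.6, scipy 1.17.1, pandas 2.3.3, matplotlib 3.10.9). Gene coordinates are those of GENCODE on GRCm38, and upstream sequences those of RefSeq on GRCm38.p6, where 9 of 10 genes matched. Genes named besides the 10 were the 2 most alike per gene and genes drawn from the 4 of each list with the most UMIs. Called genes of a list and co-detected genes are also named. Values of these list genes are given for some comparisons only, and those of Tox4, Ctnnb1, Tcf3, Irf8, Bhlhe40 and Nr4a2 are left out. The genes, lists and motifs were chosen with earlier results of these data known. Intervals and limits from a count of 0 (3 counts) cover counting error only.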

Additional observations from a re-analysis of the deposited data

Results flagged for a closer look

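Between days, Lef1, Tox, Bach2 and Eomes moved past 1.5-fold in opposite directions in different gates. How many of all genes do so was not counted, so this cannot be read as a trait of these factors. None of these differences was tested, since each day is 1 library. Values are log2 ratios of the later over the earlier day. Between days 7 and 3, Lef1 was at 0.61 in Trbv14+ and 0.82 in cycling Trbv14- barcodes but at -0.92 in CD4 barcodes. Without myeloid barcodes the Trbv14+ value was 0.073, and by the mean over cells the cycling Trbv14- value was 0.54, both under 1.5-fold. Over the same days Tox was at 1.48 in Trbv14+ and 0.81 in non-cycling Trbv14- barcodes but at -1.08 in CD4 barcodes. Both CD4 values rest on 36 UMIs at day 3. Between days 14 and 7, Tox was at 0.91 in Trbv14+ and -0.77 in non-cycling Trbv14- barcodes. Between days 14 and 3, Tox was at 2.40 in Trbv14+ and -0.62 in CD4 barcodes (-0.50 with TMM scaling, under 1.5-fold). Bach2 was at 1.09 in cycling Trbv14- and -0.84 in NK barcodes, and by the mean over cells at 0.40 and -0.57, both under 1.5-fold. Eomes was at -1.06 in Trbv14+ (-0.58 without myeloid barcodes, under 1.5-fold) and 0.81 in non-cycling Trbv14- barcodes.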

How the results depend on the processing

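Over the alternatives, 505 of the member fold changes between gates kept their direction and side of the threshold, 43 lost the call, 13 gained it and 29 changed sign; of those that changed sign, only Tcf7 among cycling barcodes passed the test. Id2 and Eomes in Trbv14+ barcodes, and Tcf7, Bach2 and Klf2 in cycling Trbv14- barcodes, were called under every alternative run. So were Eomes against CD4 barcodes and Eomes, Tbx21 and Id3 against NK barcodes. Their size still varied: in cycling Trbv14- barcodes log2 ran from -2.04 to -1.03 for Tcf7, -1.76 to -1.02 for Bach2 and -2.49 to -0.99 for Klf2. Comparisons are named below by their gates, each set against or by non-cycling Trbv14- barcodes. Values beside a gene name are log2 differences, and none is a p-value. The cause of each change was not tested.

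Without the library as replicate block, 2191 (Trbv14+), 1982 (cycling), 723 (CD4) and 1180 (NK) genes were called, against 3434, 3062, 1134 and 1929 with it. Of the 10, 3 were called against CD4 there, and Prdm1 against NK had log2 0.022. The gates of a library are paired by it, so the fit with that block is the paired analysis; days have no such pairing. Leaving out 1 day gave 1326 to 2681, 1623 to 2122, 416 to 945 and 946 to 1236 genes and 4 to 5, 4 to 5, 2 to 5 and 4 to 6 of the 10.

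Log2 values that changed sign when a day was left out were, for Trbv14+, Tbx21 (range -0.24 to 0.11), Bach2 (-0.027 to 0.46) and Id3 (-0.099 to 0.44), for cycling, Id2 (-0.068 to 0.041) and Eomes (-0.47 to 0.15), and for NK, Prdm1 (-0.25 to 0.14). With no filter, Tcf7, Klf2, Id2 and Tbx21 gained a call against CD4, and Id2 in cycling had log2 0.0053. These gains are given without the share of all genes called in that setting. Prdm1 against NK had log2 0.0090 in a fit of the 2 gates alone and log2 0.0012 with the mitochondrial filter. It was not called against NK under any alternative. Without myeloid barcodes Id2 in cycling had log2 0.011, and Prdm1 in Trbv14+ had log2 ratios of 0.025 at day 7 and 0.56 at day 14, over day 3. Without shared barcodes 1402 (Trbv14+) and 1861 (cycling) genes and 3 (Trbv14+) of the 10 were called. Against CD4, Id3, Tox and Prdm1 lost their call there. Tcf7 had log2 0.081 and Tbx21 log2 0.020 in Trbv14+, and Id2 had log2 0.17 in cycling. Against another Trbv segment 158 genes were called, with log2 0.72 for Tcf7, 0.065 for Lef1 and 0.20 for Tbx21. Against Foxp3- CD4, 682 genes and 2 of the 10 were called, with Tcf7 -0.41, Lef1 -0.19 and Klf2 -0.49; against Foxp3+ CD4, 8 of the 10. Among non-cycling Trbv14+, 186 genes and 3 of the 10 were called, with log2 0.096 for Tcf7 and 0.094 for Tbx21. Among cycling ones 172 genes were called, with log2 1.31 for Tcf7 and 0.47 for Lef1. At 10000 UMIs or more, 1648 genes were called in cycling, with Tbx21 0.16, and Trbv14+ had Tcf7 0.32, Lef1 0.19 and Tbx21 0.21. By the mean over cells, Bach2 was -0.0034 and Id3 -0.071 over all CD8 barcodes, day 7 over day 3. Of 51 member ratios between days past the size rule, 23 fell under 1.5-fold under at least 1 alternative, 16 by the mean over cells, 12 without myeloid and 9 without shared barcodes. Differences in share between barcodes with and without a gene moved beyond counting error in 25 cases at 1500 UMIs, 37 at 5000 and 38 unthinned, and not in 96, 86 and 86.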
